A study of Bos indicus with 5 samples.

Results

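The cytosolic ribosomal proteins build the ribosomes that make protein in the cytosol. Their genes were taken from the deposited table by symbol: an entry was a member when its symbol was RPL or RPS followed by a number and, where present, a letter A, L or X, or when it was RPLP0, RPLP1, RPLP2 or RPSA. This gave 99 entries of the 24616 in the table, each with its own Ensembl identifier. They carried 79 symbols, 64 of them on 1 entry and 15 on more than 1. Of the entries, 58 belonged to the large subunit, 37 to the small subunit and 4 to the P-stalk, the arm of the large subunit that recruits elongation factors.

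Each ribosome holds a single copy of most of these proteins, except that the P-stalk carries RPLP1 and RPLP2 in more than 1 copy. The messengers share a terminal oligopyrimidine (TOP) start, through which the growth-sensing mTOR pathway and its partner LARP1 control their translation together. A messenger level therefore does not give the rate of synthesis of the protein. In the oviduct, secretory and ciliated epithelial cells, muscle, fibroblasts and vessels all contain ribosomes, and the genes mark no cell type.

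RNA sequencing was done on the ampulla, which is the wide end of the oviduct, of multiparous, non-lactating Nelore (Bos indicus) cows on day 4 after ovulation was induced with GnRH. All cows carried an intravaginal progesterone device (1 g) and received 2 mg of estradiol benzoate on day -10, prostaglandin F2 alpha when the device was taken out and again 6 h later. In cows with a large follicle and large corpus luteum, the LF/LCL group, the device was withdrawn 42 h before GnRH and an extra prostaglandin injection was given on day -10. In cows with a small follicle and small corpus luteum, the SF/SCL group, it was withdrawn 30 h before GnRH. The tissue was the full wall on the side of the corpus luteum, and the sequenced cows had been picked for their follicle, luteal and hormone values. There were 2 LF/LCL and 3 SF/SCL libraries, each from a different cow.

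Values are normalized read counts, that is, reads of an entry divided by a size factor of the library. Libraries held from 13418278 to 19592174 reads, and 17431 to 17653 genes had a read. Of the 14 ciliated cell markers, which the tissue should express, none was at 0 in all libraries and 13 had a mean over 5. Their summed normalized read count was 43950 to 55207 in LF/LCL and 65784 to 67588 in SF/SCL. Smooth muscle markers summed to 63093 to 122040 in LF/LCL and 15875 to 42128 in SF/SCL, without overlap. In bulk tissue, fewer cells of a type and less RNA per cell cannot be told apart.

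The members took a similar part of each library. In LF/LCL replicates 1 and 2 they held 4.00% (95% Wilson interval 3.99 to 4.01) and 3.67% (3.66 to 3.68) of the reads. In SF/SCL replicates 1, 2 and 3 the share was 3.95% (3.94 to 3.96), 4.23% (4.22 to 4.24) and 4.18% (4.17 to 4.19). The intervals cover counting error only. The mean was 3.84% ± 0.233 (SD, n = 2) for LF/LCL, against 4.12% ± 0.149 (SD, n = 3) for SF/SCL, and LF/LCL replicate 1 lay between SF/SCL replicates 1 and 3, so that the groups overlapped. LF/LCL replicate 2 alone was below all the others. Without it the difference of LF/LCL minus SF/SCL went from -0.28 to -0.11 percentage points.

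Levels spanned a wide range. Of the 99 entries, 80 had a mean of at least 1000 normalized reads and 20 a mean of at least 10000. A longer messenger gives more reads, and lengths were not used here, so the order below is one of reads and not of molecules. In the large subunit the 5 entries with the most reads were RPL17 with a mean of 26206, RPL14 with 17933, RPL5 with 15081, RPL11 with 14922 and RPL12 with 11422. RPL17 sits where the new protein chain leaves the ribosome, and RPL5 and RPL11, when free of the ribosome, bind the p53 regulator MDM2. Among those of the small subunit were RPSA with a mean of 23471, RPS7 with 20187, RPS6 with 17528 and RPS3 with 17484. RPSA is also known as the laminin receptor, RPS6 is the classical substrate of the S6 kinases, and RPS3 lies where the messenger enters. RPSA had 24374 and 22427 in LF/LCL, against 23615, 25381 and 21561 in SF/SCL, and the LF/LCL values lay within the SF/SCL range.

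The P-stalk held the entries with the most reads of all members, RPLP1 and RPLP0. RPLP0, which anchors the stalk, had 34328 and 31438 normalized reads in LF/LCL replicates 1 and 2, against 33636, 36264 and 37350.1 in SF/SCL replicates 1, 2 and 3. RPLP1 had an entry with 34397 and 32269.8 in LF/LCL, against 35647, 35254 and 36074 in SF/SCL (ENSBTAG00000039728). The other RPLP1 entry (ENSBTAG00000018320) had 10995 and 10071 in LF/LCL, against 11834, 10866 and 12429 in SF/SCL. In both RPLP1 entries LF/LCL replicate 2 was the lowest library. RPLP2, its partner, had 2688 and 2172 in LF/LCL, against 2419, 2717 and 2891 in SF/SCL. All 4 stalk entries were lowest in LF/LCL replicate 2 and highest in SF/SCL replicate 3. The groups did not overlap in the leading RPLP1 entry and overlapped in the other 3 entries, and the log2 fold changes of the 4 lay between -0.15 and -0.10 with no adjusted p under 0.658 in limma.

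At the low end of the tested entries were the tissue-restricted paralogs. RPL3L, known from striated muscle, had 7.04 and 7.74 normalized reads in LF/LCL, against 6.24, 5.44 and 11.8 in SF/SCL. RPL10L, known from the testis, had 4.69 and 9.68 in LF/LCL, against 7.28, 6.22 and 6.44 in SF/SCL. Both were near the filter on low values, and their groups overlapped. The next lowest of the tested large subunit entries were a second RPL12 entry (ENSBTAG00000006963) with a mean of 124.8, the third RPL36A entry (ENSBTAG00000019253) with 142.0, and RPL22 with 212.6. Among tested small subunit entries the lowest were a second RPS15A entry (ENSBTAG00000020733) with a mean of 146.7, a second RPS27L entry (ENSBTAG00000012898) with 239.0, RPS13 with 302.7, RPS28 with 523.0 and RPS19 with 855.4. RPS27L, a paralog of RPS27 that p53 is known to induce, had its main entry at 1113 and 962 in LF/LCL, against 1199.8, 1238 and 1148 in SF/SCL. The highest LF/LCL value was below the lowest of SF/SCL.

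Several symbols stood on more than 1 entry, and the 15 of them covered 35 entries. Only reads that mapped to a single place were counted, so near-identical copies can lose or share reads and their values are uncertain. Reads were split almost evenly for RPL23A, which binds the chain at the exit of the tunnel, with means of 2691 and 2623 on its leading entries and 615 on another. The leading entry held 43.7 to 46.2% of the symbol's sum over the 5 libraries. For RPL30 the means were 2438 and 1977 (52.3 to 58.7% on the first), for RPL36A 4987 and 3650.4 (53.9 to 60.3%) and for RPL10, which is needed for the subunits to join, 8782 and 4859.7 (62.7 to 66.2%). For RPLP1 they were 34729 and 11239 (74.4 to 76.4%), for RPS6 17528 and 4528 (78.2 to 80.5%), and for RPL5 15081 and 3252 (81.4 to 83.2%). RPL17 and RPS25 held at least 91.2% on the leading entry, beside second entries with means of 1176 and 1248. In each of the symbols named here, the ranges of the share overlapped between the groups.

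The comparison of the groups asked whether ribosomal protein transcripts differed between the hormonal settings. No entry had an adjusted p under 0.05 in limma, where 0.0% of all 15815 genes tested were called, and 2 of the 99 entries did not pass the filter on low values. These were a second RPL21 entry (ENSBTAG00000023964), with no value over 1.94, and a second RPS26 entry (ENSBTAG00000046949), with no value over 5.86. The smallest adjusted p was 0.334. Under an unadjusted p of 0.05, 4 of 97 entries (4.12%) were found, all with lower values in LF/LCL, against 5.86% of all genes in this direction, 5.64% in the other and 11.5% in either. The share was therefore below that of all genes. On reads recovered from the values, the count of entries lower in LF/LCL at that p was 4 by the quasi-likelihood test of edgeR (5.67% of all genes), 4 by limma-voom (5.12%), 1 by edgeR's exact test (4.97%) and 5 by DESeq2 (6.27%). None of these tools gave an entry an adjusted p under 0.05, while the exact test called 2.12% and DESeq2 2.91% of all genes.

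The members leaned slightly to lower values in LF/LCL. The log2 fold change was below 0 in 75 of 97 entries (77.3%), where 49.2% of all genes tested were below 0. The median was -0.09 for the members and 0.0054 for all genes, and single entries ranged from -0.78 to 0.24. Values of the groups did not overlap in 22 entries that were lower in LF/LCL (22.7%, against 15.1% of all genes) and in 1 that was higher (against 15.0%). Without LF/LCL replicate 2 these counts were 35 and 20. The shares of 15.1% and 15.0% apply to all 5 libraries, so these counts cannot be set against them. With scaling by library size alone, 87.6% of the entries were lower and the median was -0.13, with the median of all genes at -0.03. Without LF/LCL replicate 2, 58 of 97 entries were lower and the median was -0.03, with the median of all genes at 0.009. In that fit limma's remaining LF/LCL library is assumed to vary like the others. Summed ciliated and smooth muscle markers moved with the groups, as given above, and their part in this lean was not tested.

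**Figure D1:**
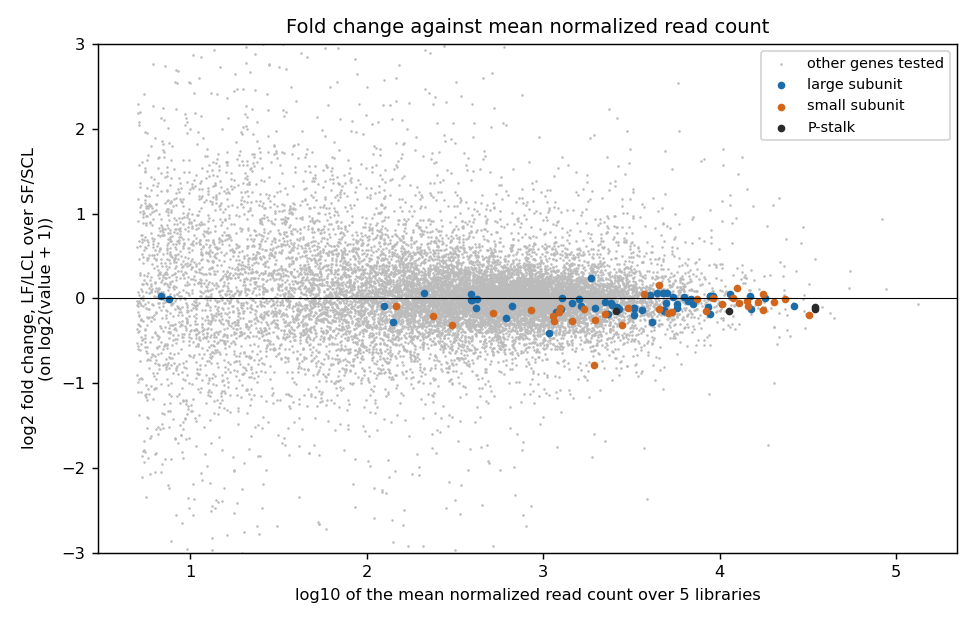
Log2 fold change (LF/LCL over SF/SCL, on log2(value + 1)) against log10 of the mean normalized read count over 5 libraries, with other genes tested in grey and ribosomal protein entries in colour; 58 other genes lie outside the plotted range of ±3. The entries sit in a narrow band from -0.78 to 0.24, mostly a little under 0, and RPS26 is the lowest.

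By subunit, 40 of 57 large subunit entries were lower in LF/LCL with a median of -0.06, and 31 of 36 small subunit entries with a median of -0.13. Groups did not overlap in 10 large subunit entries that were lower and 1 that was higher, and in 11 small subunit entries that were lower, where 15.1% of all genes were lower without overlap and 15.0% higher. The difference between the subunits was not tested. Symbols on 1 entry were lower in 46 of 64 with a median of -0.06, and entries of repeated symbols in 29 of 33 with a median of -0.12. All these shares lay above the 49.2% of all genes, as did that of the 79 leading entries, 1 for each symbol, at 73.4%. These subsets are cuts of the same entries in the same libraries, so their shares are not independent of each other.

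The lean was uneven between the libraries of a group. The lowest of the 5 values fell in LF/LCL replicate 2 for 46 of 97 entries (47.4%), where this library held the lowest value of 19.5% of the other genes. It fell in LF/LCL replicate 1 for 23 entries and in SF/SCL replicates 1, 2 and 3 for 11, 9 and 8. The highest value was in SF/SCL replicate 3 for 40 entries and in SF/SCL replicate 2 for 22, but in LF/LCL replicate 1 for 19, in SF/SCL replicate 1 for 10 and in LF/LCL replicate 2 for 6. The median over entries of the deviation from the entry's own mean was -0.01 and -0.10 on the log2 scale in LF/LCL replicates 1 and 2 and -0.03, 0.05 and 0.08 in SF/SCL replicates 1, 2 and 3. LF/LCL replicate 1 thus stood above SF/SCL replicate 1 in its typical member, and the groups were not apart by library.

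**Figure D2:**
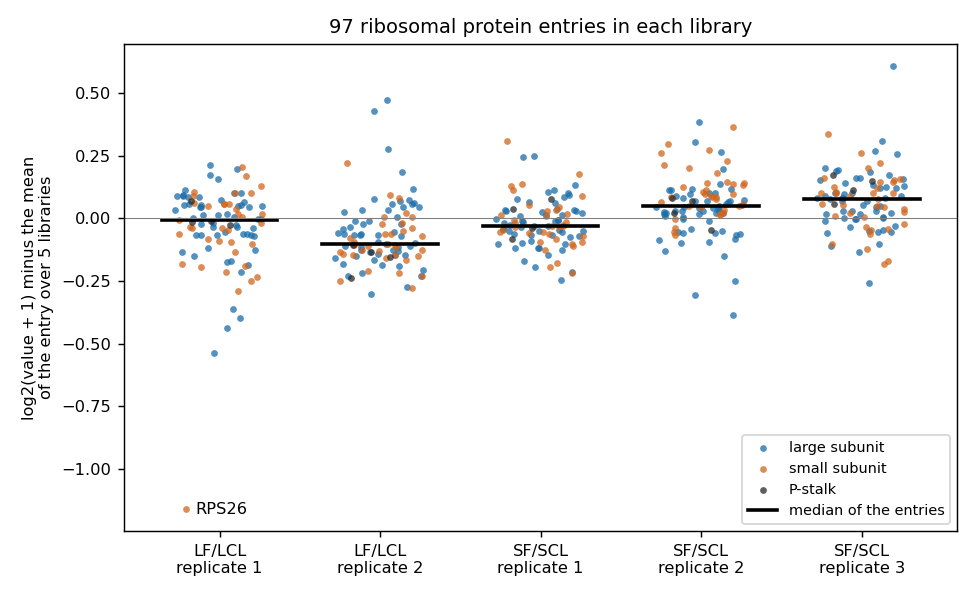
Log2(value + 1) of each of 97 entries minus its mean over the 5 libraries (y axis), by library (x axis), with a bar at the median of each library. The medians run from -0.10 in LF/LCL replicate 2 to 0.08 in SF/SCL replicate 3, and RPS26 in LF/LCL replicate 1 lies far under all other points.

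The entries with an unadjusted p under 0.05 came from both subunits. RPL21, a large subunit protein, had 834 and 981 normalized reads in LF/LCL, against 1156, 1149 and 1290.0 in SF/SCL. Both LF/LCL libraries were below all SF/SCL libraries, the fold change being -0.40 ± 0.12 (SE) on the log2 scale, with a limma p of 0.0157 and an adjusted p of 0.334. It stayed under 0.05 unadjusted in 13 of 14 alternatives, and without LF/LCL replicate 1 it was -0.29 with an unadjusted p of 0.108. RPL10A, which forms the stalk beside the site where spent tRNA leaves, had 3915 and 3382 in LF/LCL, against 4393, 4278 and 4613 in SF/SCL. Again the groups did not overlap, at -0.28 ± 0.11 (SE) with a limma p of 0.0403 and an adjusted p of 0.415, and without LF/LCL replicate 2 it was -0.18 with an unadjusted p of 0.228.

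In the small subunit, RPS12 had 2383 and 2474 normalized reads in LF/LCL, against 2823, 3046 and 3179 in SF/SCL. The LF/LCL values lay close together and below all SF/SCL values, at -0.31 ± 0.10 (SE) with a limma p of 0.0206 and an adjusted p of 0.356. RPS27, a protein with a zinc finger, had 1006 and 1055 in LF/LCL, against 1267, 1257 and 1197 in SF/SCL, again without overlap, at -0.27 ± 0.10 (SE) with a limma p of 0.0323 and an adjusted p of 0.388. RPS12, RPS27 and RPL10A were each under an unadjusted p of 0.05 in 9 of 14 alternatives. For RPS12 the highest p, 0.0934, and for RPS27 the highest p, 0.141, came without LF/LCL replicate 1. None of these entries passed the correction over all genes.

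**Figure D3:**
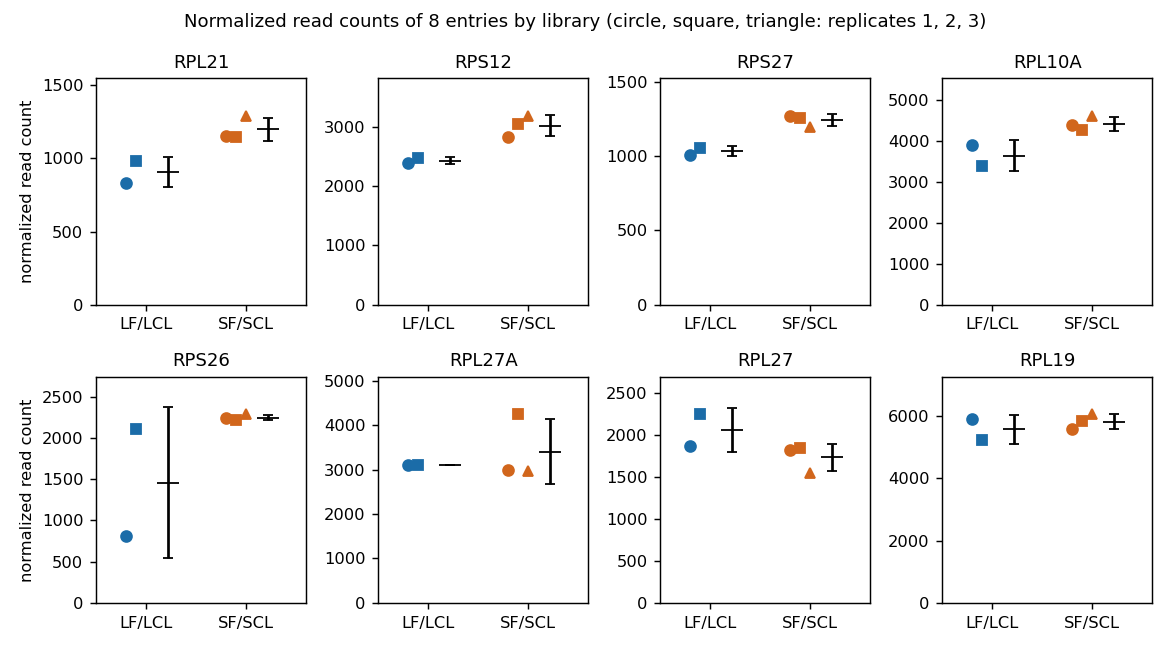
Normalized read counts (y axis, from 0) of 8 entries in the LF/LCL and SF/SCL libraries (x axis), with circle, square and triangle for replicates 1, 2 and 3 and a bar for the mean ± SD. In the top row the 4 entries with an unadjusted p under 0.05 do not overlap between groups; in the bottom row RPS26 is at 808 in 1 LF/LCL library, RPL27A is at 4239 in 1 SF/SCL library, and RPL19 lies between 5240.4 and 6048.

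RPS26 had the lowest fold change, and it rested on a single library. Its fold change was taken up after its values were seen. This protein lines the channel where the messenger leaves the small subunit, and its loss on 1 allele is a known cause of Diamond-Blackfan anemia in people. Its main entry (ENSBTAG00000038896) had 808 and 2104 normalized reads in LF/LCL, against 2237, 2217 and 2284 in SF/SCL, from 689, 2174, 2152, 2853 and 2128 reads. LF/LCL replicate 1 was thus below the other libraries by 2.60 to 2.83 times, while the other 4 lay within 1.09 times of each other. The log2 value of LF/LCL over SF/SCL, -0.78 ± 0.38 (SE) with a limma p of 0.088 and an adjusted p of 0.499, was -0.09 without LF/LCL replicate 1 (unadjusted p 0.485). Without LF/LCL replicate 2 it was -1.47 (unadjusted p 6.69e-05), where that value compares the single low library with SF/SCL.

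Few genes shared a gap of this size in this library. The size, library and side were those seen in RPS26, and gaps in other libraries were not counted over all genes. Of the 3991 genes tested with a mean of at least 1000, 4 lay at least as far (1.38 on the log2 scale) below the other 4 libraries in LF/LCL replicate 1. They were RPS26, MSLN, PIGR and an entry without a symbol (ENSBTAG00000045588), named because they were the only ones and after their values were seen. MSLN, a surface protein, is in both the secretory and the mesothelial marker lists read below. It had 2399 and 9383 in LF/LCL and 10869 to 12483 in SF/SCL replicates 1 and 3, with 8244 in SF/SCL replicate 2. PIGR, the receptor that carries antibodies across epithelia, varied over the whole range from 15.2 to 5329 in the 5 libraries. RPS26 was alone among them in having otherwise near equal values. The second RPS26 entry had 5, 6, 1, 4 and 2 reads in the same library order. Genes that stand next to RPS26 in the RefSeq order of a related cattle assembly showed no such gap: ERBB3, a growth factor receptor, had 5417 and 4667 in LF/LCL and 4621 to 5284 in SF/SCL, and PA2G4, a growth regulator also found on ribosomes, had 1937 and 2091 in LF/LCL and 1985 to 2500.1 in SF/SCL.

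Other entries that departed in 1 library did so by less. These were chosen after their values were seen. RPL27A had 3103 and 3103 in LF/LCL, against 2995, 4239 and 2959 in SF/SCL, so that SF/SCL replicate 2 was 1.37 times the next highest library. The second RPS6 entry (ENSBTAG00000023462) was at 4367 and 4198 in LF/LCL, against 4317, 5446 and 4314 in SF/SCL, with SF/SCL replicate 2 at 1.247 times the next. RPL27 was the only tested entry with higher values in LF/LCL and no overlap, with 1878 and 2248 in LF/LCL, against 1819, 1845 and 1554 in SF/SCL. Its log2 fold change was 0.24 ± 0.13 (SE), with a limma p of 0.114 and an adjusted p of 0.543. With library size scaling its groups overlapped.

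The spread of the members over all 5 libraries was set beside that of other genes with a mean of at least 1000 normalized reads. This spread was taken across both groups, so it includes any difference between them. Over the 80 entries with a mean of at least 1000, the SD of log2(value + 1) over the 5 libraries had a median of 0.112, against 0.158 for the 3911 other genes above that minimum, whose levels were not matched further, and 13 of the 80 were above the latter value. The highest library was under 1.2 times the lowest in 48.8% of the entries and in 27.2% of the other genes, and under 1.5 times in 97.5% and 70.6%. These shares are a description, as entries of 1 library are not independent.

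The spread was also taken after a common level was removed. When the median of the 80 entries in each library was subtracted, the median SD went from 0.112 to 0.087, and the SD was smaller in 60 of 80 entries. With the common level taken in this way, the decrease did not hold with 1 entry for each symbol. With the highest entry of each symbol the median SD went from 0.108 to 0.109, and with symbols on 1 entry only from 0.101 to 0.115. The subtracted median rests on the entries of middle level. It put LF/LCL replicate 1 at 0.054 above the mean of the libraries. The median deviation of the tested entries from their own mean was -0.006 in that library. Other ways of taking the common level are not reported here. RPL19, which forms a bridge between the subunits, had 5904 and 5240.4 normalized reads in LF/LCL, against 5582, 5834 and 6048 in SF/SCL. Its SD went from 0.081 to 0.020, the smallest of all. RPL7 went from 0.075 to 0.026, RPL34 from 0.069 to 0.035 and the leading RPS25 entry from 0.081 to 0.038. At the other end stood RPS26 with an SD of 0.679 after subtraction, RPL21 with 0.248, RPL27 with 0.246, RPL27A with 0.219 and RPS12 with 0.170. RPL15, which the study considered as a reference gene for PCR, had 5839 and 4596 in LF/LCL, against 4808, 4889 and 5136 in SF/SCL. The LF/LCL values enclosed those of SF/SCL. Its SD before the subtraction, 0.132, ranked 55 of 80 from the smallest, and after it the SD was 0.091.

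**Figure D4:**
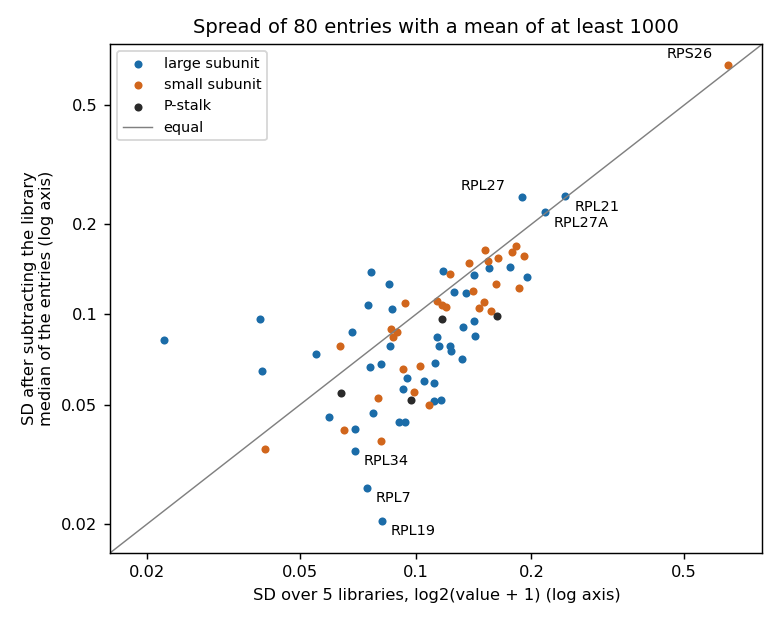
SD over 5 libraries of log2(value + 1) (x axis, log) and the SD after the library median of the entries was subtracted (y axis, log), for 80 entries with a mean of at least 1000, with a line where both are equal. Of the entries, 60 lie under the line, RPL19 goes lowest at 0.020, and RPS26 stands apart at 0.679.

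Genes around the cytosolic ribosome were read beside the members. The relatives that the symbol rule left out were measured in 7 entries, 5 of them lower in LF/LCL, with a median log2 fold change of -0.03. The leading FAU entry, a fusion with a small subunit protein, had 13379 and 11719 in LF/LCL, against 13652, 12463 and 11704 in SF/SCL, with overlap. GNB2L1, the scaffold RACK1 on the small subunit, had 25862 and 24549 in LF/LCL, against 22901, 27415 and 28739.9 in SF/SCL. None of the 7 had an unadjusted p under 0.05.

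The 75 mitochondrial ribosomal proteins, which serve the separate ribosomes of mitochondria, were split with 35 higher and 40 lower in LF/LCL and a median of -0.01. Groups did not overlap in 10 of them in each direction, against 15.1% of all genes lower and 15.0% higher. MRPL17 alone had an unadjusted p under 0.05, with 969 and 1023 in LF/LCL, against 852, 821 and 846 in SF/SCL, at 0.25 ± 0.10 (SE) with a limma p of 0.048 and an adjusted p of 0.427. Translation initiation factors were lower in 28 of 42 with a median of -0.04. Their groups did not overlap in 12 that were lower (15.1% of all genes) and 2 that were higher (15.0%). Elongation factors and other TOP messengers were lower in 12 of 16 with a median of -0.06, or -0.15 without LF/LCL replicate 1. Among them 2 were lower without overlap and 0 higher. The 19 genes of the mTOR and LARP1 control of translation were at 9 higher and 10 lower with a median of -0.00096, and 3 were lower and 2 higher without overlap. LARP1 had 3066 and 2968 in LF/LCL, against 3253, 3275 and 2803 in SF/SCL, with overlap. Medians so close to 0 changed sign under other settings for the relatives, the mitochondrial proteins and the mTOR list.

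Genes that assemble ribosomes were also more often lower than higher in LF/LCL. Of 53 ribosome assembly factors 36 were lower in LF/LCL with a median of -0.08, and groups did not overlap in 20 lower (15.1% of all genes) and 1 higher (15.0%). An unadjusted p under 0.05 was found for 3 of the 53, all lower, a share close to the 5.86% of all genes in this direction. NPM1, the nucleolar chaperone which the list of TOP messengers also holds, had 634 and 588 in LF/LCL, against 814, 823 and 819 in SF/SCL. The SF/SCL values were nearly equal and both LF/LCL values lay below, at -0.42 ± 0.11 (SE) with a limma p of 0.0068 and an adjusted p of 0.297. FBL, the methyltransferase of ribosomal RNA, followed with 701 and 668 in LF/LCL, against 823, 912 and 816 in SF/SCL, at -0.31 with an adjusted p of 0.386 in limma. UTP20 had the remaining unadjusted p under 0.05, at -0.36 with an adjusted p of 0.42 in limma.

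In the RNA polymerase I list, whose products transcribe ribosomal RNA or drive that transcription, 14 of 15 were lower in LF/LCL, with a median of -0.13. Groups did not overlap in 5 that were lower (15.1% of all genes) and 1 that was higher (15.0%). MYC, a transcription factor that raises the output of ribosome genes, had 511 and 436 in LF/LCL, against 733, 999 and 1509.97 in SF/SCL. Groups did not overlap and the SF/SCL libraries spread widely, at -1.13 ± 0.30 (SE) with a limma p of 0.0098 and an adjusted p of 0.306. CD3EAP, a subunit of the polymerase, was at -0.37 with an adjusted p of 0.431 in limma. No gene of these lists had an adjusted p under 0.05, and no difference between a list and the members was tested.

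**Figure D5:**
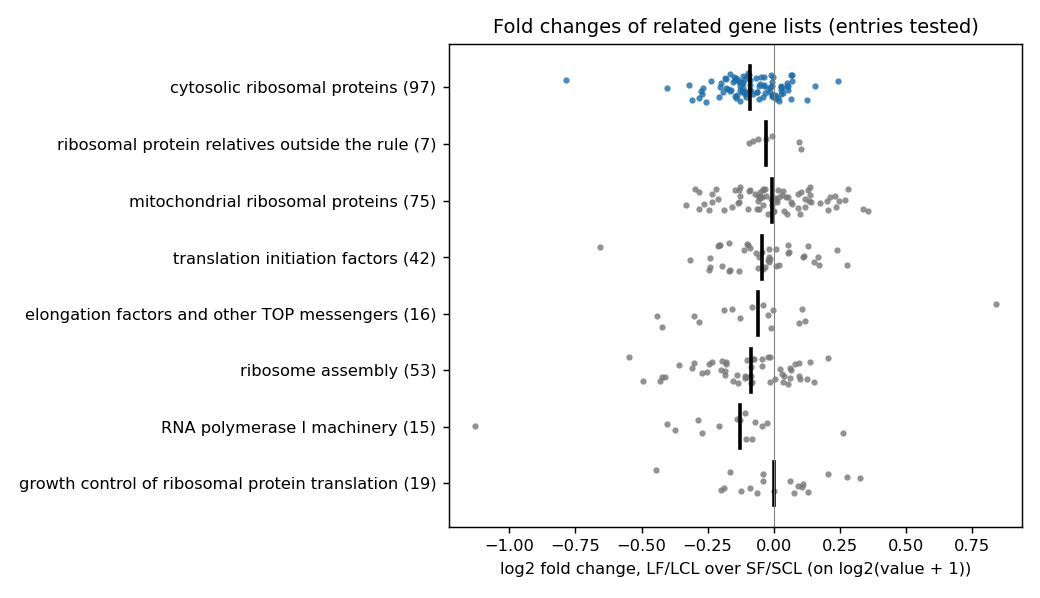
Log2 fold change (x axis, LF/LCL over SF/SCL, on log2(value + 1)) of each tested entry in 8 gene lists (y axis, number of entries in parentheses), with a bar at the median of the list. The medians lie at or below 0, from -0.13 for the RNA polymerase I list to -0.00096 for the mTOR list, and the points of the cytosolic members run from -0.78 to 0.24.

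Several cell marker lists moved with the groups. All 10 tested smooth muscle markers were higher in LF/LCL, with a median log2 fold change of 1.499. Of these, 9 were under an unadjusted p of 0.05 in limma, against 5.64% of all genes in this direction. Of 13 tested ciliated markers 12 were lower, with a median of -0.36 and 9 under that p, against 5.86% of all genes. No marker had an adjusted p under 0.05 in limma. All 10 proliferation markers were higher with a median of 1.09, and 4 were under an unadjusted p of 0.05 in limma, against 5.64% of all genes. They summed to 1943 to 2480.4 in LF/LCL and 1632 to 1717 in SF/SCL. Immune markers were higher in 8 of 10, of which 5 were under that p, with sums of 2429 to 3283 and 1549.7 to 2613. Fibroblast markers were higher in 6 of 7, of which 0 were under that p, with sums of 31375 to 78033 and 20139 to 43424. Epithelial markers summed to 35130.0 to 37421 in LF/LCL and 31698 to 34159 in SF/SCL, and secretory markers to 139880.3 to 151889 and 141873 to 164595. The 7 tested secretory markers were split, with 2 higher and 5 lower in LF/LCL and a median of -0.56. In each direction 2 were under an unadjusted p of 0.05 in limma, against 5.64% (higher) and 5.86% (lower) of all genes. Endothelial markers summed to 4721 to 7383 and 5729 to 8073, and mesothelial markers to 9299 to 17045 and 15079 to 20519. MSLN is counted in both the secretory and the mesothelial sums. Blood markers were low, at 65.8 to 507 and 16.1 to 234, with 1 of 4 matched genes at 0 in all libraries. The part of these cell types in the lean of the ribosomal proteins was not tested.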

How the data were processed

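The authors sequenced polyA libraries as pairs of 101-base reads, trimmed them with seqyClean (minimum length 65), aligned them with TopHat2 2.0.8 and Bowtie2 2.1.0 against a masked Bos taurus genome (UMD 3.1), and took uniquely mapped, unambiguous reads per Ensembl gene with HTSeq 0.5.4p2. SAMtools 0.1.18, CASAVA 1.8.2 and DESeq 1.12.1 are also in the submitters' notes. The use of strand and the annotation release are not given in the sources used here. The deposited values are a normalized signal, the read count divided by a DESeq size factor, written with 3 decimals. Each nonzero value was a whole multiple of its library's step (100%, tolerance 0.01 reads), so reads could be recovered. An LF/LCL library that the authors set aside was not used here. No other value columns were present (0 unused).

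Values were tested as log2(value + 1) with limma 3.58.1 (lmFit, eBayes with trend and robust, R 4.3.3) for the 15815 genes with a mean over 5, two-sided, with Benjamini-Hochberg adjustment over all of them and a threshold of 0.05. Fold changes are LF/LCL over SF/SCL and understate the change of low genes. P-values measure the spread between these cows. No batch was given. On the recovered reads, the edgeR 4.0.16 quasi-likelihood test called 0 genes and DESeq2 1.42.0 called 460. Scripts' statistics were tested on simulated data. Alternatives were other tests, pseudocounts (0.5 and 5), filters, scalings, entry choices and each library left out. Those for RPS26, for the count of lower entries and for the lowest library were added after seeing the data.

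The members and all gene lists were chosen with earlier results of these data known. Named were the 5 highest and 5 lowest entries by mean in each subunit, up to 8 entries per direction with an unadjusted p under 0.05, a mean of at least 50 and no overlap, all entries of RPLP0, RPLP1, RPLP2, RPSA, RPL15, RPL3L, RPL10L and RPS27L, repeated symbols with a second entry of at least 1000, and the 5 largest and 5 smallest spreads. A few entries that this rule names are not reported here. Symbols RPL39L, RPL41 and RPS4X were not matched by name and are not analysed here. Of the 79 symbols, 77 were in the RefSeq table of another assembly, which was used for neighbours only. Coordinates and sequences were not used here.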

Additional observations from a re-analysis of the deposited data

How the results depend on the processing

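No entry had an adjusted p under 0.05 under any alternative run, so no called result could change direction. The 4 entries with a lower value and an unadjusted p under 0.05 were 1 with edgeR's exact test and 1 to 3 when a library was left out (1 without LF/LCL replicate 1 and without SF/SCL replicate 2); the cause was not tested. With symbols on 1 entry only, entries lower in LF/LCL numbered 46 and those without overlap 14, as fewer entries were counted. Non-overlapping lower entries numbered 25 to 56 with a library left out, and higher ones 2 to 20 (20 without LF/LCL replicate 2). Such counts cannot fall when a library is left out, and the shares of all genes in these settings are not given here. Higher ones were 2 with no filter, which admits the second RPS26 entry, and 0 with library size scaling. Medians with a library left out ran from -0.086 to -0.031 for initiation factors and from -0.25 to -0.13 for the RNA polymerase I list, lowest without LF/LCL replicate 1 in both. No paired analysis was possible because each cow is in 1 group only and the labels share no number between the groups. With 2 against 3 cows, and 1 cow in the smaller group when a library was left out, small differences cannot be resolved. RPS26 is the entry whose value depended most on 1 library. Reads of near-identical copies, and of overlapping or antisense genes, may be split or lost in the counting.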
